A study of Mus musculus with 6 samples.

Results

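UTX binding was examined at 9 genes that direct where T cells travel: Ccr7, Cxcr5, Cxcr4, S1pr1, S1pr4 and Itga4, which act in entry to, retention in or exit from lymphoid tissue, and Cxcr6, Cxcr3 and Cx3cr1, which mark homing to peripheral tissue. Sites were taken by the gene symbol that the authors' deposited table assigns to them, which gave 23 of the 6739 listed sites. They fell on 7 of the 9 genes, and Cxcr3 and Itga4 had no listed site. The signal is that of CUT&Tag, in which an antibody against UTX tethers a transposase that cuts and tags the DNA nearby. The cells were Ly108+CXCR6- CD8+ T cells, a progenitor fraction, sorted from pancreatic lymph nodes of NOD.NY8.3 mice, a strain whose CD8+ T cells express an islet-reactive transgenic receptor. The groups were 3 WT samples and 3 UTX-deficient samples, the latter from NY8.3 mice with a T cell specific deletion of UTX. Both groups carry the NY8.3 receptor, so the transgene was shared between them. The Cre driver, the deleted part of Kdm6a, the gene of UTX, the age of the mice and any pooling of animals are not stated in the labels. The comparison addresses which regions UTX binds, and cells lacking UTX show what the antibody picks up in its absence.

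UTX removes methyl groups from lysine 27 of histone H3, a mark of Polycomb repression, and also works within complexes that methylate lysine 4 at enhancers. Naive and progenitor T cells enter lymph nodes with CCR7, which follows the chemokines CCL19 and CCL21, and leave with S1PR1, which follows sphingosine 1-phosphate into the lymph. CXCR6, CXCR3 and CX3CR1 are typically gained as T cells become effector or tissue-resident cells, and CXCR6 was the marker the sort excluded.

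Reads per library were recovered from the deposited group means, since the table gives no values per sample. The recovered libraries carry no replicate number and are given from the deepest to the shallowest of a group. Relative to a mean of 1, depth was 0.792 to 1.28 in the libraries of WT mice and 1.93, 1.07 and 0.00577 in those lacking UTX. The 0.00577 library was nearly empty. It held 0 reads at the 23 sites, where its depth would give 6.56 reads in all at the WT level. Normalized reads below are reads divided by relative depth, so 1 read of this library counts as 173.2. A site with such a read would rarely be called lower in UTX-deficient cells. The 0 thus follows largely from the choice of sites. Over all 6715 such sites with recovered reads the library also held 0, where its depth would give 1591. The UTX-deficient level rests on 2 libraries. Nothing in the labels says whether samples came from separate mice, so the tests measure the spread between these samples. As a check of the label, a site lower in UTX-deficient cells lay at 6 of 8 CD8 T cell markers. One lay at 0 of 18 markers of B cells, macrophages, dendritic cells and NK cells, against 22.1% of protein-coding genes. A site higher in UTX-deficient cells lay at 1 CD8 T cell marker. Of the other markers, Cd4 and Pecam1 had sites (1 of 3 CD4 T cell markers and 1 of 5 stromal and endothelial markers). Such sites do not measure expression, and Cxcr6, which the sort excluded, was also assigned sites. The counts therefore do not establish the label. The site at Kdm6a held 65, 48 and 35 reads in WT against 8, 12 and 0 without UTX.

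The promoters that bear on the comparison of homing groups are shown first. Start sites were placed for the 6 members found in the RefSeq promoter table (GRCm38.p6, the assembly of mm10 and a C57BL/6J sequence, while the mice were NOD). Of these, Cxcr6 was the only member with a listed site over its promoter window, which runs from 250 bases before to 50 after the start. Ccr7, Cxcr5 and S1pr1, all lymphoid members, had no start placed, so no promoter window was examined for them. Each had a listed site whose middle lay close to a gene end, at 161, 345 and 136 bp in that order. Whether those sites cover a promoter was not examined, so Cxcr6 cannot be called the only member bound there. Each sequence gives the 250 bases before the start, 5′ to 3′ on the strand of the gene. Capitals mark matches, on either strand, to the motif cores CTTTGA (TCF-1/LEF-1), TGTGGT (RUNX), GTAAACA (forkhead) and CCACCC (KLF). Cxcr6 is shown because a site covers it, Cxcr3 because it is the tissue-homing member with no listed site, and S1pr4 because its only site begins just inside the gene.
Cxcr6 (chr9:123806227-123806476, plus strand): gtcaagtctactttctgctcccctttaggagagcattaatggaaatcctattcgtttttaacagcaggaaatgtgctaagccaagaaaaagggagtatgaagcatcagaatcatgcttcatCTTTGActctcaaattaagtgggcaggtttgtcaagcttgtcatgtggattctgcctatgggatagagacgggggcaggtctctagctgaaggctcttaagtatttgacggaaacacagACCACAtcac
Cxcr3 (chrX:101734148-101734397, minus strand): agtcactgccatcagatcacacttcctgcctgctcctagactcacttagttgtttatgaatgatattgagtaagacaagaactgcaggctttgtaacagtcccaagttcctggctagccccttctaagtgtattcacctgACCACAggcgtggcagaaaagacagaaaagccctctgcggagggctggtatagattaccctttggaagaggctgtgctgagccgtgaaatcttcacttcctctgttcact
S1pr4 (chr10:81500138-81500387, minus strand): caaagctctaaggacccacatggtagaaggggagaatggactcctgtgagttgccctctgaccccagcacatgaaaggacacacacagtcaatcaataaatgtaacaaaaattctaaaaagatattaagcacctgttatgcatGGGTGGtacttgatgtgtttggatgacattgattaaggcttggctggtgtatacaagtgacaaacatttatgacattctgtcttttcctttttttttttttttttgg
The first Cxcr6 site covers the last 208 of these bases. That stretch holds a TCF-1/LEF-1 core beginning at position -129 from the start and a RUNX core, in reverse complement, beginning at -10. The Cxcr3 promoter holds a RUNX core and the S1pr4 promoter a KLF core, and neither is covered by a listed site. None of the 4 cores overlaps another in these sequences. The TCF-1/LEF-1 core was in 1 of the 6 members' windows and in 16.0% of all 32851 windows, and the RUNX core in 4 of 6 and in 16.8%. The KLF core was in 3 of 6 and in 31.5%, and the forkhead core in 0 of 6 and in 3.65%. By base content the Cxcr6 window, at 44.3% GC with 3 CpG, was poorer than the median window under a listed site (64.0% GC and 25 CpG). The Cxcr4 window, at 59.3% GC with 20 CpG, was the richest in CpG of the 6. A listed site lay over 12.8% of all windows.

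Every member site had less UTX signal in UTX-deficient cells. In the authors' deposited table the log2 folds ran from -4.50 at S1pr4 to -2.26 at a distal S1pr1 site, with a median of -3.28, against -3.51 over all listed sites lower in UTX-deficient cells. The rule takes listed sites alone, and 81.0% of the 8293 sites behind the authors' adjustment were called lower (FDR under 0.05), so a count of 23 of 23 shows nothing particular to the receptors. Each WT library lay above each UTX-deficient library at 23 of 23 sites, as at 99.8% of all listed sites with recovered reads. With 3 libraries a group, the smallest two-sided p of an exact permutation test is 0.1. By limma on the recovered reads, adjusted over all of them, 23 of 23 sites were lower with all 6 libraries (99.8% of listed sites were) and also without the near-empty one. In bulk CUT&Tag, fewer cells with UTX at a site and less UTX per cell cannot be told apart.

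**Figure D1:**
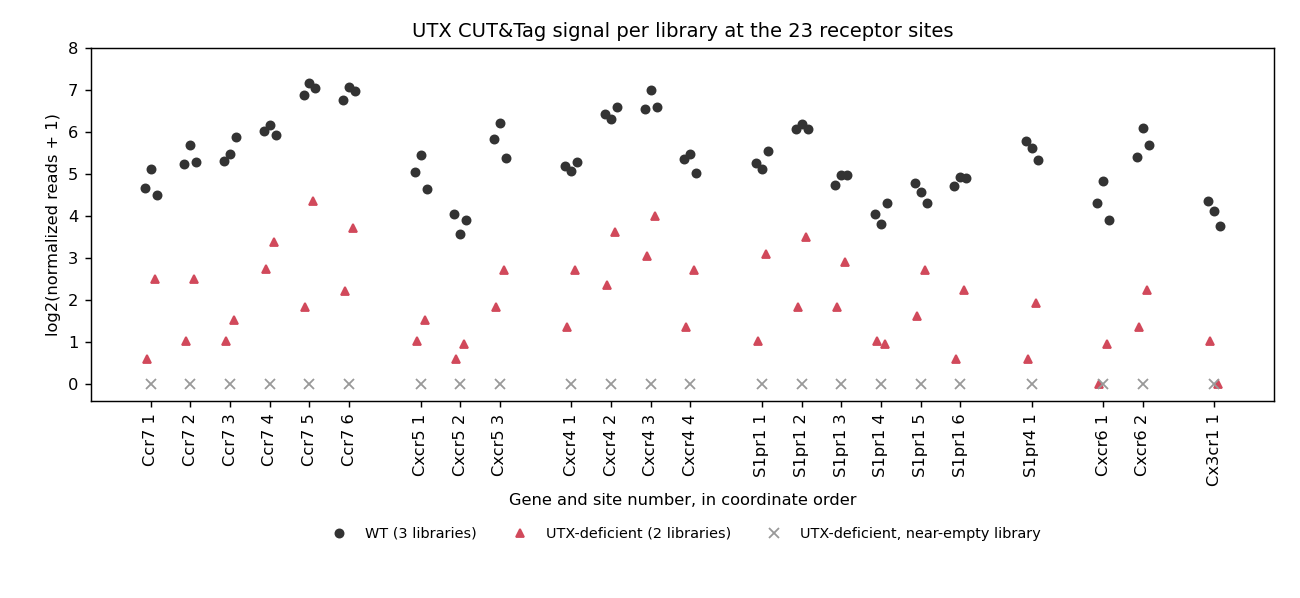
UTX CUT&Tag signal, as log2(normalized reads + 1), at each of the 23 sites, with 1 point per library (circles WT, triangles the 2 well-sequenced UTX-deficient libraries, crosses the near-empty one). WT points lie above all UTX-deficient points at each site, and the crosses lie at 0 throughout.

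By the authors' assignment of sites to genes, Ccr7, the receptor for entry to lymph nodes and their T cell zone, held the most UTX signal of the members. It had 6 sites over 40.1 kb of chromosome 11 (mm10), from 99131281 to 99171351, around a gene that runs from 99144199 to 99155077. Their sum was 388, 476 and 430 normalized reads in WT (mean 431 ± 44.0, SD, n = 3) against 14.5, 52.2 and 0 without UTX. Sites with WT means of 130 and 122 made up most of that sum, and both lay nearer to another gene. With all member sites nearer to another gene set aside, Cxcr4 held more WT signal than Ccr7. Only 25 genes, 0.479% of the 5221 with a site lower in UTX-deficient cells, had 6 sites or more, Ccr7 and S1pr1 among them. None of the 6 Ccr7 sites lay inside the gene, and 3 lay on either side of it. The authors numbered their sites in coordinate order, and these 6 numbers follow each other without a gap. No site of the authors' set between them was thus left out of the table.

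The strongest Ccr7 sites were the 2 farthest toward higher coordinates, both nearer to the long noncoding gene Gm32249 than to Ccr7. The fifth site, from 99163156 to 99163556 and 8279 bp from the gene, held 150, 131 and 103 reads in WT against 5, 21 and 0 without UTX. Its WT mean of 130 ± 12.8 normalized reads (SD, n = 3) was the highest of the members and exceeded that of 97.4% of listed sites. The UTX-deficient libraries differed widely there, at 2.58 and 19.6 normalized reads. Its FDR in the authors' deposited table, 3.49e-05, was far larger than the 2.43e-16 of the sixth site, whose WT signal was much the same. That sixth site, from 99170951 to 99171351, lay inside Gm32249, 16074 bp from Ccr7, with 137, 123 and 98 reads in WT against 7, 13 and 0 without UTX. The authors' deposited table gave log2 folds of -3.28 for the fifth site and -3.92 for the sixth. By limma without the near-empty library the log2 differences were -3.93 (SE 0.77) and -3.97 (SE 0.68), a gap well within their errors.

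The fourth Ccr7 site was the one at the gene's edge, its middle 161 bp beyond the upper end. It held 82, 65 and 47 reads in WT against 11, 10 and 0 without UTX. There the signal left in the 2 well-sequenced UTX-deficient libraries, 11.6% of the WT mean, was the largest of the Ccr7 sites. On the other side of the gene, the third site, 7524 bp away, held 49, 40 and 46 reads in WT against 2, 2 and 0 without UTX. That was 3.10% of the WT mean, the least of the Ccr7 sites, and its value of -4.46 in the authors' deposited table, on the log2 scale, was the steepest of the 6. The first and second sites, 12718 and 11643 bp from the gene, held 17 to 31 and 30 to 47 reads in WT and at most 5 in UTX-deficient cells.

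Cxcr4, the receptor for CXCL12 that holds cells in marrow and lymphoid stroma, had 4 sites on chromosome 1, and 3 of them lay far upstream of its start. Their sum was 253, 279 and 259 normalized reads in WT (mean 264 ± 14.1, SD, n = 3) against 14.5, 37.3 and 0 without UTX. The third site, from 128614784 to 128615184 and 22685 bp upstream of the start, held 118, 115 and 75 reads in WT against 14, 16 and 0 without UTX. The second, from 128602617 to 128603017 and 10518 bp upstream, held 109, 71 and 75 reads in WT against 8, 12 and 0 without UTX. With an FDR of 9.79e-19 in the authors' deposited table it had the smallest of the members, with a fitted log2 fold of -3.53. The first site, inside the gene and 1050 bp past the start, was weaker, with 45, 30 and 30 reads in WT against 3, 6 and 0 without UTX. The fourth lay 174755 bp upstream, nearer to the small nuclear RNA gene Gm23056, so its assignment to Cxcr4 is uncertain. It held 51, 40 and 25 reads in WT against again 3, 6 and 0 without UTX.

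Cxcr5, the receptor for CXCL13 that leads cells to B cell follicles, had 3 sites of lower signal on chromosome 9. Their sum was 104, 127 and 78.3 normalized reads in WT (mean 103 ± 24.2, SD, n = 3) against 4.13, 8.39 and 0 without UTX. The strongest, from 44533105 to 44533505 and 6861 bp above the gene's upper end, held 72, 67 and 32 reads in WT against 5, 6 and 0 without UTX. A site inside the gene held 41, 39 and 19 reads in WT against 2, 2 and 0 without UTX. The site at the gene's edge, 345 bp beyond the upper end, was the weakest of all 23, with 20, 10 and 11 reads in WT against 1, 1 and 0 without UTX. Its FDR in the authors' deposited table was 0.0362. The WT libraries spread more at the intragenic and the strongest Cxcr5 sites (SD 28.3% and 28.9% of the mean) than at the median member site (16.8%).

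**Figure D2:**
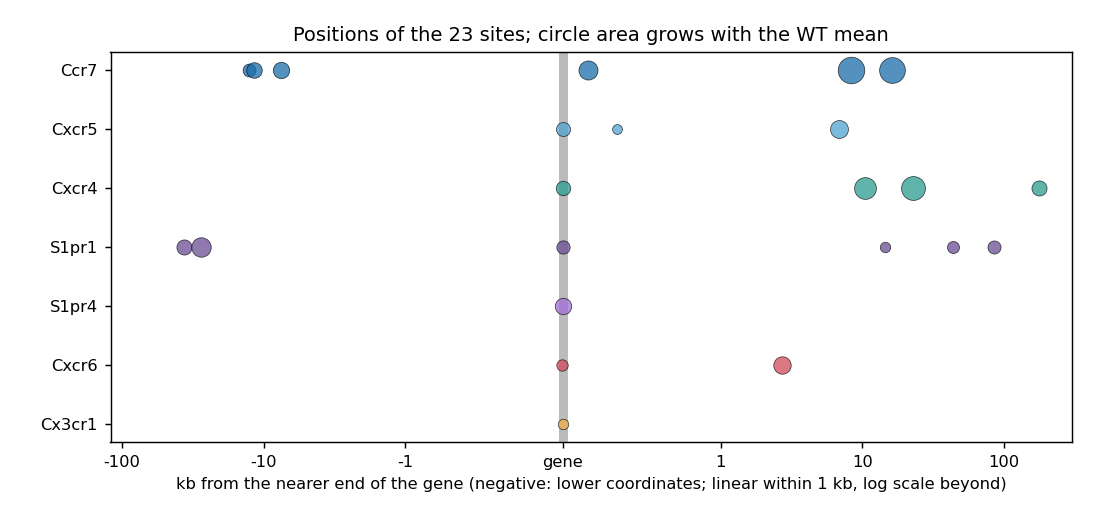
Distance in kb from the middle of each site to the nearer end of its gene, with the gene drawn as the grey line, sites inside it at 0, and the axis linear within 1 kb and logarithmic beyond. Circle area grows with the WT mean; the largest circles, at Ccr7 and Cxcr4, lie 8279 to 22685 bp outside the genes.

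S1pr1, the receptor that lets cells leave lymph nodes, had 6 sites spread over 126 kb of chromosome 3, more widely than those of Ccr7 and with less signal. Their sum was 196, 202 and 208 normalized reads in WT (mean 202 ± 6.00, SD, n = 3) against 9.82, 34.5 and 0 without UTX. The WT libraries thus spread little, and the S1pr1 sum lay below the Cxcr4 sum in each of them. The strongest site, the second, from 115682716 to 115683116 and 27517 bp below the gene, held 84, 66 and 52 reads in WT against 5, 11 and 0 without UTX. Its log2 fold was -3.49 in the authors' deposited table (FDR 4.45e-17). The single site inside the gene, from 115714719 to 115715119 and 136 bp from the upper end, had lower WT signal, with 33, 28 and 24 reads, and held 5, 7 and 0 in UTX-deficient cells. Of its WT signal, 15.8% was left in the 2 well-sequenced UTX-deficient libraries. The fifth site, 43587 bp above the gene, kept 16.8% (34, 21 and 15 reads in WT against 4, 6 and 0 without UTX). These 2 shares exceeded those at 97.7% and 98.4% of listed sites, and 16.8% was the highest of the 23. They rest on 10 to 12 reads in all.

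The other S1pr1 sites were the first, 36452 bp below the gene, with 48, 31 and 36 reads in WT against 2, 8 and 0 without UTX, and 2 more above it. The fourth held 20, 12 and 15 reads in WT against 2, 1 and 0 without UTX. The sixth, 84435 bp away, held 32, 27 and 23 reads in WT against 1, 4 and 0 without UTX. The first and the sixth lay nearer to the noncoding genes Gm40124 and A930005H10Rik than to S1pr1. In the authors' numbering 1 number is missing among the S1pr1 sites, between the fifth and the sixth, so 1 site of their set there is not listed.

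S1pr4, a related receptor for sphingosine 1-phosphate found mainly on blood cells, had a single site with the steepest fold of the members. It lay on chromosome 10 from 81499499 to 81499899, its middle 438 bp past the start of this short gene of 2393 bp. The reads were 69, 44 and 31 in WT against 1, 3 and 0 without UTX. In normalized reads the WT mean was 47.0 ± 7.46 (SD, n = 3), against 0.517 and 2.80 in the well-sequenced UTX-deficient libraries. The log2 fold was -4.50 in the authors' deposited table (FDR 2.85e-12) and -4.31 (SE 0.53, adjusted p = 1.16e-06) by limma without the near-empty library. Compared with S1pr1, the S1pr4 site kept 3.52% of its WT signal and the S1pr1 sites together 11.0%. In the deepest and the middle UTX-deficient library these shares were 1.10% and 5.95% at S1pr4 and 4.86% and 17.1% at S1pr1. The ranges overlapped, although S1pr4 lay lower in each library. The S1pr4 shares rest on 1 and 3 reads, and the difference was not tested.

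Itga4, the alpha chain of the integrin VLA-4, which binds VCAM-1 and also pairs with integrin beta 7 for gut homing, had no listed site. The nearest listed sites lay 301907 bp above its upper end, at Itprid2, and 3362982 bp below its lower end. The authors' numbering skips 4 numbers between those 2 sites, so sites of their set that are not listed may lie there. Itgb7, the partner chain, had 2 listed sites, of which the leading one held 79, 74 and 55 reads in WT against 4, 9 and 0 without UTX.

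Of the tissue-homing receptors, Cxcr6 and Cx3cr1 had listed sites and Cxcr3 had none. Cxcr6, the receptor for CXCL16, had 2 sites on chromosome 9, although the cells had been sorted as lacking its product. Both lay within the bounds of Fyco1, a gene that spans Cxcr6, so the signal cannot be given to 1 of these genes by position. The stronger, from 123814259 to 123814659 and 2705 bp beyond the Cxcr6 gene, held 53, 62 and 40 reads in WT against 3, 4 and 0 without UTX, and the authors' deposited table lists its log2 fold as -4.09 (FDR 1.28e-12). The site over the promoter, from 123806269 to 123806669, held 24, 25 and 11 reads in WT against 0, 1 and 0 without UTX. The 2.33% of WT signal left there was the least of the 23 sites and rests on 1 read. The log2 fold at that promoter was -3.49 in the authors' deposited table (FDR 0.00158).

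Cx3cr1, the receptor for fractalkine and a mark of effector cells, had a single weak site inside the gene, 13407 bp past the start. It held 25, 15 and 10 reads in WT against 2, 0 and 0 without UTX. The WT mean of 16.2 ± 3.47 normalized reads (SD, n = 3) exceeded that of 5.51% of listed sites, and the FDR in the authors' deposited table was 0.0295. Cxcr3, the receptor for CXCL9 and CXCL10, lies on chromosome X from 101731535 to 101734147. The nearest listed sites were 198683 bp below it, at Taf1, and 384979 bp above it, at Pin4, and 1 number of the authors' set is skipped between them.

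Set side by side, 5 of 6 lymphoid receptors and 2 of 3 tissue-homing receptors had a listed site, against 22.1% of protein-coding genes. That share runs over all 21900 such genes, active in T cells or not. The members were also chosen with earlier results of these data known, so the excess cannot be taken as a result about the receptors. With so few genes the 2 shares cannot be told apart. The lymphoid receptors had 20 sites, 16 of them on Ccr7, S1pr1 and Cxcr4, with WT means from 13.5 to 130 and a median of 40.3 normalized reads, and the tissue-homing ones 3 sites, at 16.2, 20.0 and 53.2, all within the lymphoid range. Neither the number nor the strength of sites was tested between the groups. The median over all listed sites was 30.7. At an FDR of 0.01 the tissue-homing group kept 1 of its 2 genes, Cxcr6, while the lymphoid group kept all 5. The stronger Cxcr6 site still lay among the lymphoid ones: in the order of WT means it came eighth, and its range over the WT libraries (41.5 to 67.7) overlapped those of its neighbours in that order, the third Cxcr5 site (40.4 to 73.1) and the S1pr4 site (39.1 to 54.0). Down the whole order the WT ranges of neighbouring sites overlapped everywhere except between the fourth place, the second Cxcr4 site (77.5 to 94.7), and the fifth, the second S1pr1 site (65.6 to 72.0). By gene, under the authors' assignment, the order of WT sums was Ccr7, Cxcr4, S1pr1, Cxcr5, Cxcr6, S1pr4 and Cx3cr1. In WT the sums of Cxcr5 and Cxcr6 overlapped between libraries, and those of the other neighbours in this order did not. The place of Ccr7 depends on sites nearer to another gene: with such sites set aside, Cxcr4 lay above it.

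The signal left in UTX-deficient cells ran from 2.33% to 16.8% of the WT mean over the 23 sites, with a median of 7.62%, against 5.75% over all listed sites (quartiles 3.86% and 8.26%). The 20 lymphoid sites kept 3.10% to 16.8%, with a median of 8.72%. The 3 tissue-homing sites kept 2.33%, 3.19% and 4.96%, a range that overlapped the lymphoid one. Those 3 values rest on 1, 2 and 7 reads, and no test of the difference was made. Between the well-sequenced UTX-deficient libraries the shallower one had the higher normalized signal at 21 of 23 sites, as at 84.0% of listed sites. The member sites together held 46.0 normalized reads in the deepest UTX-deficient library and 139.8 in the other, against 1075 to 1243 in WT.

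**Figure D3:**
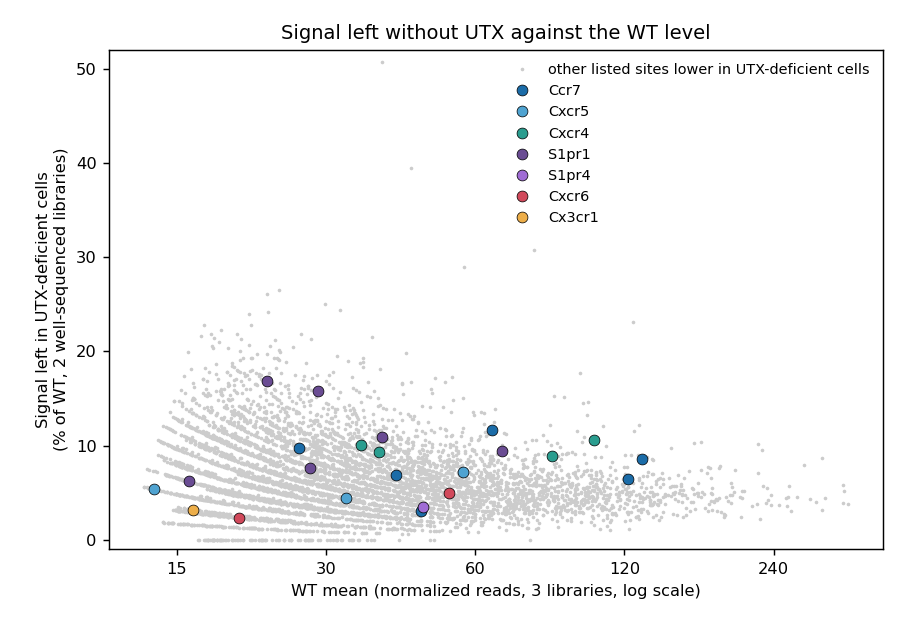
Signal left in UTX-deficient cells (mean of the 2 well-sequenced libraries as a percentage of the WT mean) against the WT mean on a log scale, for all listed sites lower in UTX-deficient cells (grey) and the 23 receptor sites (coloured by gene). The S1pr1 sites at 15.8% and 16.8% lie above 97.7% and 98.4% of listed sites, which reach 50.7%. The Cxcr6 and Cx3cr1 sites lie at 4.96% or less. So do the third Ccr7 site (3.10%), the S1pr4 site (3.52%) and the first Cxcr5 site (4.41%).

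As a share of a library's reads in the 23 sites, which needs no scaling by depth, the genes kept nearly the same order in both groups. Ccr7 took 36.1%, 38.3% and 39.4% of the reads in WT and 31.5% and 37.3% in the UTX-deficient libraries. S1pr1 took 18.3%, 16.2% and 19.1% in WT against 21.3% and 24.7% without UTX, so that both UTX-deficient shares lay above the WT ones. Cxcr4 did likewise, with 22.5% to 23.7% in WT against 31.5% and 26.7% without UTX. Cxcr6 lay the other way, with 5.60% to 7.64% in WT against 3.37% and 3.33% without UTX. So did S1pr4, a lymphoid member, with 3.58% to 5.02% in WT against 1.12% and 2% without UTX, the latter on 1 and 3 reads. The exact (Clopper-Pearson) 95% intervals of the UTX-deficient shares were wide, at 13.4% to 31.3% and 18.0% to 32.4% for S1pr1 and 0.701% to 9.54% and 1.09% to 7.61% for Cxcr6. For both genes they overlapped the intervals of the WT libraries, and the differences in share were not tested. The intervals address counting error only, and may be too narrow even for that, since reads copied by PCR are not independent molecules.

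**Figure D4:**
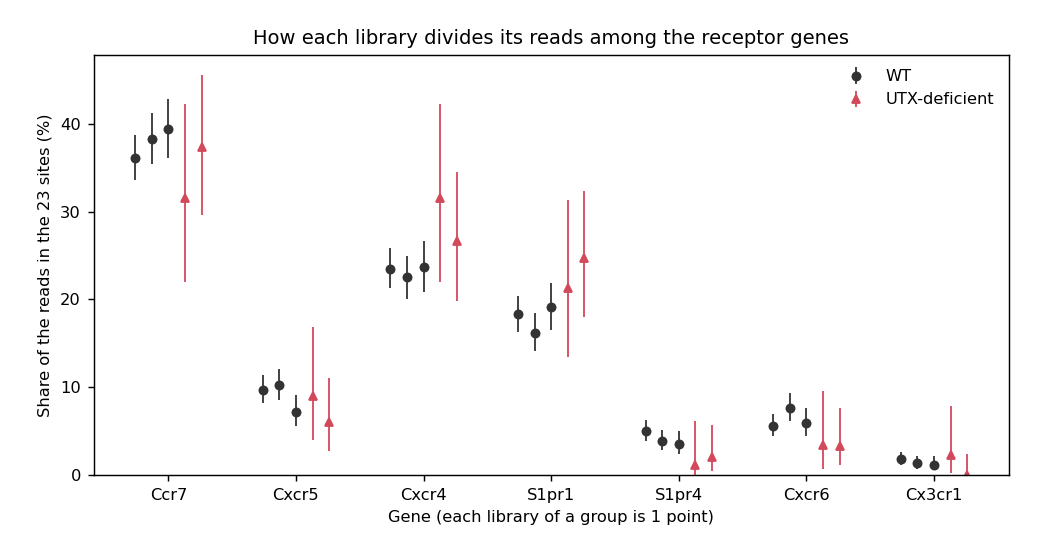
Share of each library's reads in the 23 sites that fell on each gene (%), with exact 95% intervals as bars; circles are WT libraries and triangles the 2 well-sequenced UTX-deficient libraries. The intervals of the groups overlap at each gene, and those of UTX-deficient cells are wide because these libraries held 89 and 150 reads in all.

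The receptor sites lay farther from gene ends than listed sites in general. Of the 23, 5 (21.7%) had their middle within 1 kb of an end of the assigned gene, 1 each at Ccr7, Cxcr5, S1pr1, S1pr4 and Cxcr6, against 53.2% of 6645 listed sites that could be placed. A further 11 (47.8%) lay outside the gene and more than 10 kb away, against 11.2%, and these were 5 S1pr1, 3 Ccr7 and 3 Cxcr4 sites. Cxcr5, S1pr4, Cxcr6 and Cx3cr1 had no site that far away. Sites of 1 gene are not independent, and the difference from other listed sites was not tested. At Ccr7, Cxcr4 and S1pr1 the site with the highest WT signal was never the one nearest the gene. Distances follow the authors' assignment to genes, and at 5 of the 23 sites, all outside the assigned gene, an end of another annotated gene lay nearer: the fifth and sixth Ccr7 sites, the fourth Cxcr4 site and the first and sixth S1pr1 sites. Both Cxcr6 sites lay inside Fyco1, although the nearest gene end was that of Cxcr6. With these also set aside, 16 sites on 6 members were left, and Cx3cr1 was then the 1 tissue-homing receptor with a site.

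Other genes of T cell trafficking were drawn from a list of 102 genes in 10 roles, of which 101 matched the annotation. A site lower in UTX-deficient cells lay at 38 of the 92 matched genes that are not members (41.3%, against 22.1% of protein-coding genes). The list, too, was chosen with earlier results of these data known, so the excess cannot be taken as a result about trafficking genes. None of these genes had a site higher in UTX-deficient cells, but only 21 of all 6739 listed sites were higher. Over the 86 sites of the list, members included, the median log2 fold was -3.63 in the authors' deposited table. Genes that control exit had a site at 6 of 7, and the roles were not tested against each other. Klf2, the factor that drives S1pr1 expression, and Cd69, whose product takes S1PR1 off the surface, had -3.56 and -3.72 as leading log2 folds in the authors' deposited table. Grk2, a kinase that desensitizes S1PR1, had -4.01 and Arrb1, an arrestin, -4.33 in the authors' deposited table. Among chemokine receptors beyond the members, Ccr9 and Ccr8 had sites and the other 10 had none. The leading Ccr9 site, 10407 bp from its gene, held 106, 83 and 42 reads in WT against 1, 4 and 0 without UTX, more in WT than either Cxcr6 site nearby. S1pr2, S1pr3 and S1pr5 had no listed site, nor had any of 4 atypical chemokine receptors.

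Among selectins and their ligands, Selplg, which encodes the P-selectin ligand PSGL-1, and Selp, which encodes P-selectin, had sites whose leading log2 folds in the authors' deposited table were -3.73 and -3.65. Integrins had a site at 5 of 13 genes that are not members, led by Itgb7, Itgae, Itgb2 and Itga6, and the authors' deposited table gives these 4 log2 folds between -4.45 and -3.34. Genes that carry the receptor signal to adhesion and motility had one at 15 of 24, led by Rasgrp2, an activator of Rap1, at -5.15, with Cdc42, Stk4 and Coro1a at -4.37, -4.56 and -4.37 in the authors' deposited table. Regulators of G protein signalling, which shorten chemokine responses, had one at 5 of 8, led by Rgs10, Rgs2, Rgs14 and Rgs3. Of 9 chemokine genes Cxcl10 had a site (11.1%), and of 6 genes of sphingosine 1-phosphate supply and transport Sgpl1, the lyase that breaks it down, had one (16.7%). With so few genes these shares cannot be told apart from the 22.1% of protein-coding genes. The Cxcl10 site was weak, with 18, 14 and 14 reads in WT against 2, 3 and 0 without UTX.

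By the 2 group concentrations, the log2 mean normalized reads of each group, the sites most like the fifth Ccr7 site were at Dad1, a subunit of an enzyme that attaches sugars to proteins, Morf4l2 and Dthd1. They lay 0.0523 to 0.0912 log2 units away. Their reads in the well-sequenced UTX-deficient libraries, 10 and 19, 9 and 19, and 13 and 18, were closer to each other than the 5 and 21 at Ccr7.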

How the data were processed

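UTX CUT&Tag was measured in 3 WT and 3 UTX-deficient samples. Per the submitters' processing notes the build was mm10 and the tools were DiffBind, MACS2, Bowtie2, cutadapt, FastQC, Picard and SAMtools. Their versions, their roles and any pooling for peak calls are not stated there. Going by the file headers, the authors deposited log2 concentrations (log2 mean normalized reads over all samples and per group, lowest value 0), a log2 fold (negative where WT is higher), a p-value and an FDR for each of 6739 sites of 401 bp, all with an FDR under 0.05. From rank, p-value and FDR the authors adjusted over 8293 tests, and row numbers run to 10831.

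Main calls are the authors'. Whole reads were recovered from the group means, each a sum of whole reads multiplied by the worth of 1 read of its library. Exactly 1 solution was found in both groups for 6731 sites, all 23 member sites among them, and the recovered relative depths summed to 6. The recovery and the model were tested on simulated data. Recovered reads were fitted with limma 3.58.1 (R 4.3.3) on log2(normalized reads + 1), with Benjamini-Hochberg adjustment over these 6731 sites, which the authors' FDR had already selected. In all, 6677 symbols matched RefSeq GRCm38.p6; distances run from the site's middle to a gene end. Alternatives were an FDR of 0.01, limits of 10 and 1 kb, the nearest annotated gene (by gene end and, added later, by gene span), a WT concentration of at least 4 (log2), another pseudocount and libraries left out. Named are all members, the 4 genes of smallest FDR per role of the trafficking list, Kdm6a, the 3 nearest sites to the strongest member site, and genes nearer to a site; 1 gene that this rule names is not reported here. S1pr2, S1pr3, S1pr5, Cd4 and Pecam1 were named after their values were seen. The members and lists were chosen with earlier results of these data known.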

Additional observations from a re-analysis of the deposited data

How the results depend on the processing

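The count of 23 member sites lower in UTX-deficient cells stayed at 23 by limma with all 6 libraries, with a pseudocount of 4 and with each library left out in turn (23 to 23), and was 21 at an FDR of 0.01 and 21 with a WT concentration of at least 4. The limma counts could hardly fall, since the authors' FDR had selected these sites and limma called 99.8% of listed sites with all 6 libraries. With either well-sequenced UTX-deficient library left out, that group held 1 such library and the near-empty one. The count of member sites fell to 12 within 10 kb of the gene and to 5 within 1 kb of a gene end. It was 18 where the assigned gene overlapped the site or had the nearest gene end. It was 16, without Cxcr6, where a site inside another gene also counted as nearer to that gene, a setting chosen after seeing the data. Members with a site numbered 5 to 7 under these limits. The tissue-homing members with a site fell from 2 to 1 at an FDR of 0.01, where Cx3cr1 was lost, to 1 within 1 kb and to 1 where sites inside another gene were set aside, and the count stayed at 2 with Itga4 added to that group. Trafficking genes with a site fell from 45 to 24 within 1 kb. The median log2 fold of -3.28 was -4.02 by limma with all 6 libraries, -2.88 with a pseudocount of 4, and -4.67 to -3.44 with 1 library left out; without the near-empty library, which pulls its group down as a value of 0 at each site, it was -3.44. No paired analysis was possible because the deposited values carry no replicate numbers. With 0 to 21 reads per site in the UTX-deficient libraries, depth limits what can be said of the signal left.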
